A study of Mus musculus with 4 samples.

Results

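The Atf4 amino acid response genes described here were 10 genes: the transcription factor Atf4, 8 genes that act downstream of it in amino acid synthesis, uptake and stress signalling (Ddit3, Trib3, Asns, Psat1, Phgdh, Slc7a5, Slc3a2 and Sesn2), and the amino acid sensing kinase Eif2ak4. They were taken by name, and every probe set that the platform annotation gave to 1 of them alone was used, which made 19 of 22626 probe sets and 10 of 12393 genes. All 10 genes were on the array. A further 2 probe sets of Phgdh are also given to another gene and were left out.

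Expression was profiled on arrays in Langerhans cells, the dendritic cells of the epidermis, from the ear skin of untreated mice. Mice lacking exon 2 of the gene for the aryl hydrocarbon receptor (AhR ko in the labels) gave 2 arrays, and wild-type C57BL/6 mice the other 2. This receptor is a transcription factor that small aromatic ligands switch on. Cells of both groups spent 16 hours in culture before being sorted as living MHC class II-positive cells to more than 95% purity, so no group shows these genes in cells taken straight from skin. The samples are labelled as biological replicates. The labels do not say how many mice were pooled, nor give age, sex or the strain background of the deficient mice. P-values therefore measure the spread between these samples.

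In the integrated stress response, kinases such as GCN2 (the product of Eif2ak4, which senses uncharged transfer RNA) phosphorylate the translation factor eIF2. General protein synthesis then slows, while the messenger RNA of Atf4 is translated more. ATF4 protein binds composite elements shared with C/EBP factors and switches on genes that make, import and charge amino acids. An array measures messenger RNA, so it does not read the translation step. In dendritic cells this pathway is known for its link to tryptophan breakdown, which lowers the supply of an essential amino acid.

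Promoter sequences of the members were examined for the core of the C/EBP-ATF composite element (TGATGNAA) and for the core of the xenobiotic response element to which the aryl hydrocarbon receptor binds (TNGCGTG), on both strands. These 2 motifs do not overlap each other in the stretches shown. RefSeq promoters of GRCm38.p6, running from 250 bases before to 50 bases after each start, were at hand for 9 of 10 members, with 11 promoters in all; Slc7a5 was the member without one. The composite element core was found in 2 of these 11 promoters, against 3.97% of all 32851 promoters. The xenobiotic element core was also found in 2 of 11, against 5.07% of all. The stretches with a match are printed because they hold the letters through which each factor is known to bind DNA, and capitals mark the match.
Asns, chr6:7693210-7693329, minus strand, 120 bases before the start, with the composite element core at -23 to -16: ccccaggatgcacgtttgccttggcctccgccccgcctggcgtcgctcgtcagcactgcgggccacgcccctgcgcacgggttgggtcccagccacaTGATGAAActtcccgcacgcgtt
Trib3, chr2:152344028-152344057, minus strand, with the composite element core on the opposite strand at 15 to 22 after the start: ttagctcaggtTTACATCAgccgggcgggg
Atf4, chr15:80255064-80255183, plus strand, 120 bases before the start, with the xenobiotic element core at -44 to -38: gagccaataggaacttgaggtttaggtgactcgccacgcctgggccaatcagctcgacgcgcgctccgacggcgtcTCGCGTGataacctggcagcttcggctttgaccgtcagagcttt
Psat1, chr19:15924623-15924742, minus strand, 1 of its 2 listed starts, with the xenobiotic element core at -67 to -61: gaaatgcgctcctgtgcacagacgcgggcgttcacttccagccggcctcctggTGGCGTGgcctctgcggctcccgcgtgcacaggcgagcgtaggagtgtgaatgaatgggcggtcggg
A match is a description of these letters and does not show binding, and no match says only that these letters are not in the window.

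The comparison asked whether messenger RNA of the amino acid response differed between Langerhans cells with and without the receptor. Values are given on the deposited log2 scale, and each difference is AhR-deficient minus wild-type with limma's moderated standard error (SE) and an adjusted p by Benjamini-Hochberg over all 22626 probe sets. Where a gene had several probe sets, the brightest on average over the 4 arrays represents it. No member passed at an adjusted p under 0.05 in limma: 0 of 19 probe sets were called, beside 4 probe sets (0.0177%) over the whole array, all lower in AhR-deficient cells. With any 1 array left out, 0 probe sets were called over the whole array and 0 among the members. The smallest adjusted p of a member was 0.710. At an unadjusted p under 0.05 there were 2 member probe sets, 1 each for Slc3a2 and Trib3, where the share over all probe sets was 6.00%. Of the 19 probe sets, 3 were higher and 4 lower without overlap between the genotypes, a separation seen for 35.2% of all probe sets.

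Separation here means that both arrays of a genotype lay beyond both arrays of the other. By gene, 3 of 10 members were higher in AhR-deficient cells (Slc3a2, Atf4 and Eif2ak4) and 2 were lower (Asns and Sesn2). Over all genes such separation was seen for 35.4%, with 18.8% higher and 16.6% lower. The member counts were 3 higher and 4 lower when array medians were subtracted or quantile normalisation was repeated. With 1 array left out, they were 3 and 6 without AhR-deficient replicate 1 and 6 and 2 without replicate 2 of that genotype. They were 4 and 2 without wild-type replicate 1 and 3 and 4 without wild-type replicate 2. With 3 arrays separation is easier to reach. The share over all genes is not given for these settings, so these counts are not to be read against 35.4%. An exact two-sided permutation test of 2 arrays against 2 cannot give a p under 0.333. The median difference over the 10 members was 0.04, beside 0.01 over all genes, and it was -0.07 when the first AhR-deficient array was left out and 0.18 when the other one was. The members thus spread to both sides of zero, from -0.57 for Asns to 0.55 for Slc3a2.

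**Figure D1:**
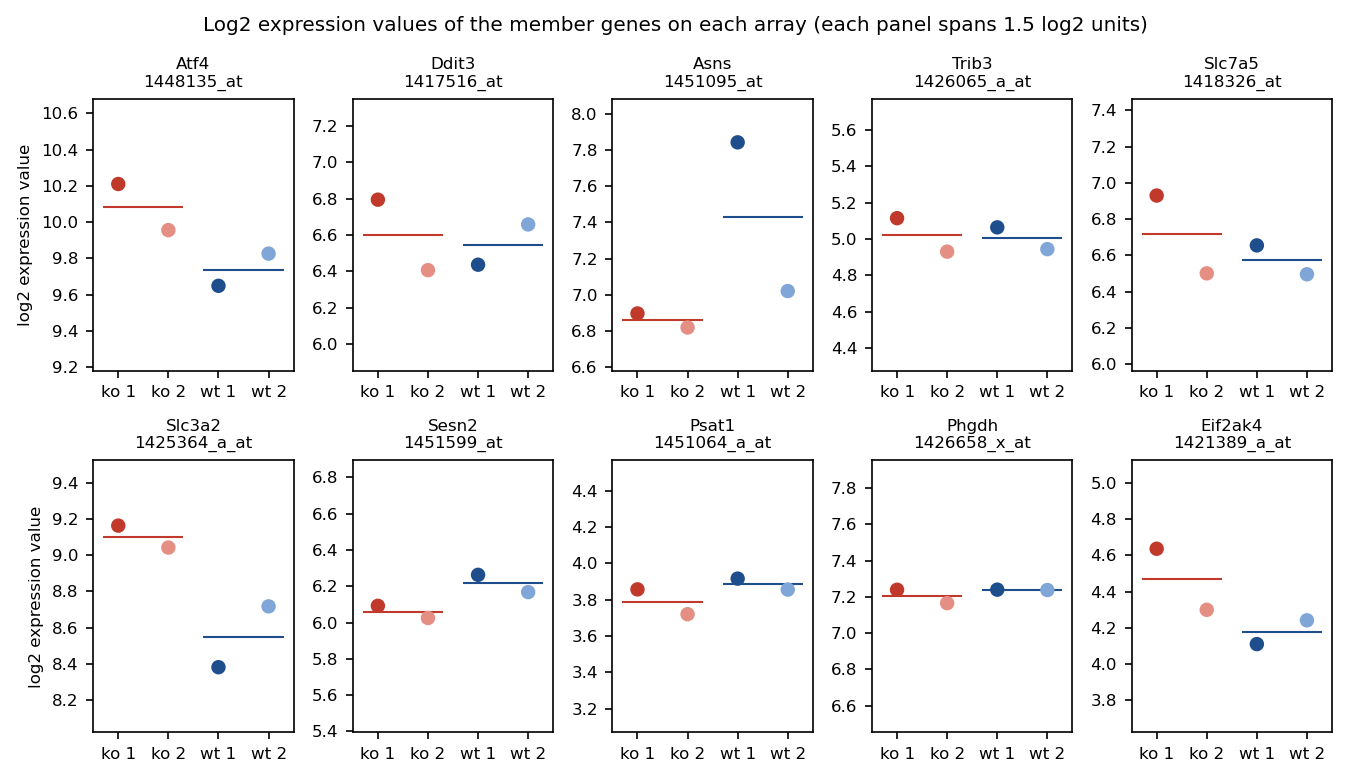
Log2 expression values (vertical axis) of the 10 member genes on the 4 arrays (horizontal axis; ko, AhR-deficient; wt, wild-type), with the representative probe set named above each panel, 1 point per array and a line at each genotype's mean. Asns stands out through the first wild-type array at 7.84, while Slc3a2 has both AhR-deficient arrays, at 9.16 and 9.04, above both wild-type arrays.

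Among the sensing and regulatory genes, Eif2ak4 encodes the kinase at the head of the response. Its log2 value was 4.64 and 4.30 on the AhR-deficient arrays, against 4.11 and 4.24 on the wild-type arrays. The AhR-deficient arrays were both higher, but by a margin smaller than the gap between them. The difference was 0.29 (SE 0.14, n = 2 per genotype, limma adjusted p = 0.869) at a probe set whose mean was above just 19.5% of all probe sets, where a dim signal compresses differences. Without AhR-deficient replicate 1 the difference was 0.12, and without AhR-deficient replicate 2 it was 0.46.

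The other kinases of eIF2 were read beside it. Eif2ak3, the kinase of endoplasmic reticulum stress, had the opposite sign, with 6.82 and 6.96 on the AhR-deficient arrays, against 7.11 and 7.35 on the wild-type arrays (difference -0.34, SE 0.12, limma adjusted p = 0.811). Eif2ak1, the heme-regulated kinase, differed by 0.12 (SE 0.08) and Eif2ak2, the kinase of double-stranded RNA, by 0.13 (SE 0.10). None of the 4 kinases passed.

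Atf4, the central transcription factor, gave one of the brightest signals of the group. Its representative probe set, 1448135_at, read 10.21 and 9.96 on the AhR-deficient arrays, against 9.65 and 9.83 on the wild-type arrays. The genotypes did not overlap, and the difference was 0.35 (SE 0.13, limma adjusted p = 0.834). It was 0.22 without AhR-deficient replicate 1. A second bright probe set of Atf4, 1438992_x_at, read 9.52 and 9.28 against 9.33 and 9.40, which overlapped, with a difference of 0.04 (SE 0.11). Probe set 1439258_at was dim, with values from 4.57 to 4.66 and a difference of -0.03 (SE 0.08). The probe sets of Atf4 therefore disagreed on whether the genotypes separate. The suffix _x_at marks a probe set whose probes can bind other transcripts as well.

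Ddit3 encodes CHOP, a transcription factor that ATF4 induces and that promotes cell death under lasting stress. It read 6.79 and 6.41 on the AhR-deficient arrays, against 6.44 and 6.66 on the wild-type arrays. Both wild-type values lay between the AhR-deficient ones, and the difference was 0.05 (SE 0.17, limma adjusted p = 0.988). It turned to -0.14 without AhR-deficient replicate 1 and to -0.06 without wild-type replicate 1. The 95% interval of this difference ran from -0.41 to 0.51.

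Trib3 encodes a pseudokinase induced by ATF4 and CHOP that dampens the response. Its brighter probe set, 1426065_a_at, read 5.11 and 4.93 on the AhR-deficient arrays, against 5.06 and 4.94 on the wild-type arrays, a difference of 0.02 (SE 0.10) that turned to -0.07 without AhR-deficient replicate 1 and to -0.04 without wild-type replicate 2. The other, 1456225_x_at, read 4.09 and 3.98 against 4.25 and 4.37, with both AhR-deficient arrays lower (difference -0.27, SE 0.09, limma unadjusted p = 0.0400, adjusted p = 0.811). Both probe sets were dim, and the one with the lower signal (above 16.3% of probe sets) was the one that separated.

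Asns, asparagine synthetase, is a classical ATF4 target and a member whose promoter stretch above holds the composite element core. It had the largest difference among the 10 members on the lower side. Probe set 1451095_at read 6.90 and 6.82 on the AhR-deficient arrays, against 7.84 and 7.02 on the wild-type arrays. The AhR-deficient arrays lay close together and below both wild-type arrays, while the wild-type arrays lay 0.82 apart, a gap as large as or larger than that of 98.3% of genes. The difference was -0.57 (SE 0.29, limma adjusted p = 0.870).

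The second probe set of Asns, 1433966_x_at, read 5.10 and 4.38 on the AhR-deficient arrays, against 6.67 and 5.07 on the wild-type arrays, with an overlap at the lower wild-type array (difference -1.13, SE 0.60, limma adjusted p = 0.874). Both probe sets thus had their highest value on wild-type replicate 1. Without that array the differences were -0.16 and -0.33. Without wild-type replicate 2 they were -0.98 and -1.93. Most of the size of the Asns difference therefore rested on 1 array. On that array the 3' minus 5' log2 signal of the Actb control, which rises as RNA is truncated from its 5' end, was 3.16, beside 2.34 to 2.65 on the other arrays, and for the Gapdh control it was 2.60 beside 1.97 to 2.24. The same array was the lowest for Slc3a2, Atf4 and Eif2ak4 and the highest for Sesn2, Psat1 and Phgdh. The part of RNA quality in the values of Asns and of these members was not tested.

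Phgdh and Psat1 encode the enzymes of serine synthesis that act first and second on the glycolytic intermediate. Phgdh had the smallest range of the members: 7.24 and 7.16 on the AhR-deficient arrays, against 7.24 and 7.24 on the wild-type arrays at 1426658_x_at, a difference of -0.04 (SE 0.08) with a 95% interval from -0.25 to 0.17. Without AhR-deficient replicate 2 it was 0.00040. The other 3 Phgdh probe sets differed by -0.02 to 0.05. All 4 end in _x_at, and related sequences could contribute to their signal.

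Psat1 was at the bottom of the signal range, with 3.86 and 3.72 on the AhR-deficient arrays, against 3.92 and 3.86 on the wild-type arrays at 1451064_a_at (difference -0.10, SE 0.09). Its second probe set read 3.61 and 3.60 against 3.68 and 3.67. These means lay above just 9.45% and 5.84% of probe sets, so the array gave little room to see a lower level, and a small difference there does not measure the gene well.

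Slc3a2 and Slc7a5 encode the heavy and light chain of 1 transporter, which brings leucine, tryptophan and other large neutral amino acids into the cell. Slc3a2 had the largest difference among the members on the higher side and the smallest p of the group. It read 9.16 and 9.04 on the AhR-deficient arrays, against 8.38 and 8.72 on the wild-type arrays. Both AhR-deficient arrays were above both wild-type arrays, and the gap between the genotypes was about the size of the spread between the wild-type arrays. The difference was 0.55 (SE 0.14, 95% interval 0.17 to 0.94), or 1.47-fold (limma unadjusted p = 0.0156, adjusted p = 0.710), and it came to 0.38 with wild-type replicate 1 left out and to 0.72 with the other wild-type array left out.

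Slc7a5, the light chain that carries out transport, read 6.93 and 6.50 on the AhR-deficient arrays, against 6.66 and 6.50 on the wild-type arrays. The genotypes overlapped, and AhR-deficient replicate 1 alone stood higher. The difference was 0.14 (SE 0.17, limma adjusted p = 0.939, 95% interval -0.33 to 0.61), and it was -0.07 without that array. The chains of the transporter were not tested against each other.

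Sesn2 encodes a leucine-binding protein that restrains the growth kinase mTORC1 and is induced by ATF4. It read 6.09 and 6.03 on the AhR-deficient arrays, against 6.26 and 6.17 on the wild-type arrays at 1451599_at. The genotypes separated by a narrow margin (difference -0.16, SE 0.08, limma adjusted p = 0.873). The dimmer probe set, 1425139_at, read 4.88 and 5.17 against 5.04 and 5.14, which overlapped.

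**Figure D2:**
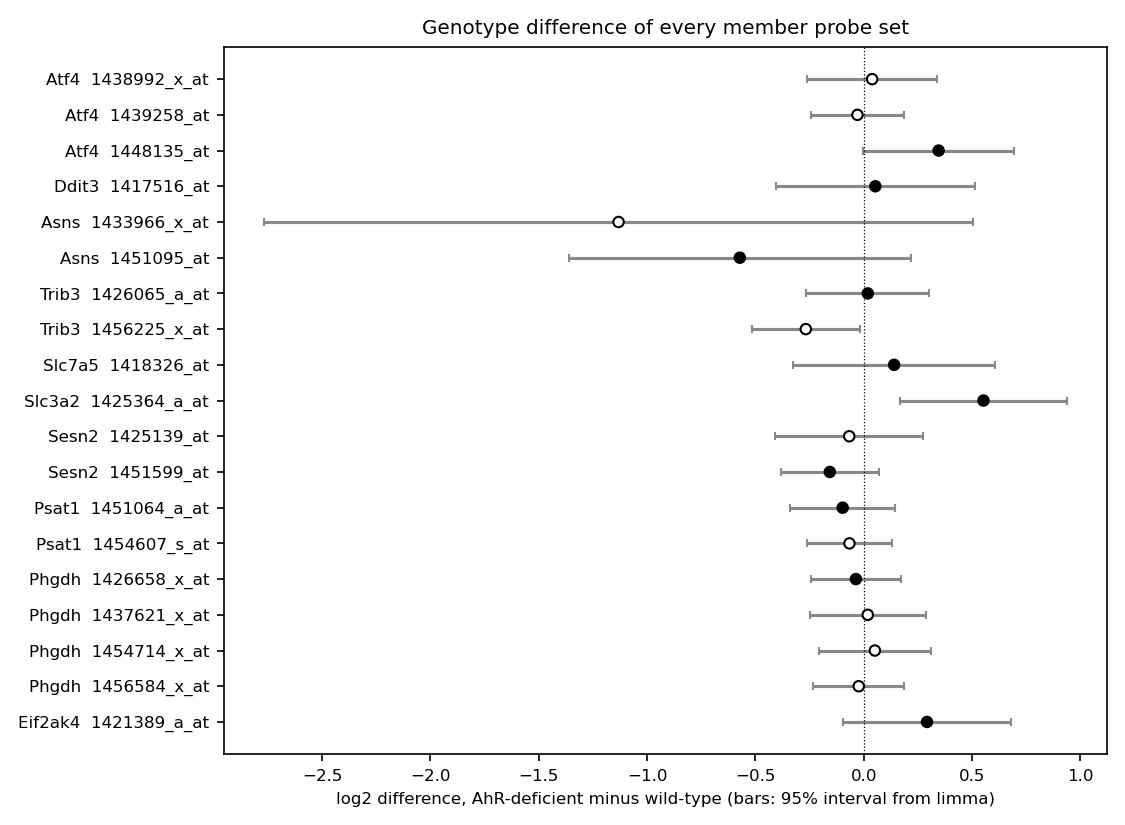
Log2 difference, AhR-deficient minus wild-type, of all 19 member probe sets (horizontal axis), with 95% intervals from limma as bars; filled points are the probe sets that represent a gene. The intervals of Slc3a2 and of 1 Trib3 probe set leave out zero before adjustment, and those of Asns are the widest.

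The precision differed greatly among the members. The half-widths of the 95% intervals ran from 0.20 to 1.64, and 17 of 19 probe sets had an interval that lay wholly between -1 and 1, that is within a 2-fold change either way. The exceptions were both probe sets of Asns. These intervals are not adjusted for the number of probe sets.

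The members varied between arrays of 1 genotype as well. AhR-deficient replicate 1 had the highest value for 6 of 10 members and the lowest for none, while AhR-deficient replicate 2 had the lowest for 6 and the highest for none. Over all genes these arrays held the highest value for 31.7% and 20.9% and the lowest for 26.0% and 22.7%. Slc7a5 (0.43), Ddit3 (0.39) and Eif2ak4 (0.34) had the widest gaps between the AhR-deficient arrays. The median gap between arrays was 0.16 in AhR-deficient and 0.15 in wild-type cells over the members, beside 0.12 and 0.12 over all genes. Wild-type replicate 1 was the highest for Asns, Sesn2, Psat1 and Phgdh and the lowest for Atf4, Slc3a2 and Eif2ak4.

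**Figure D3:**
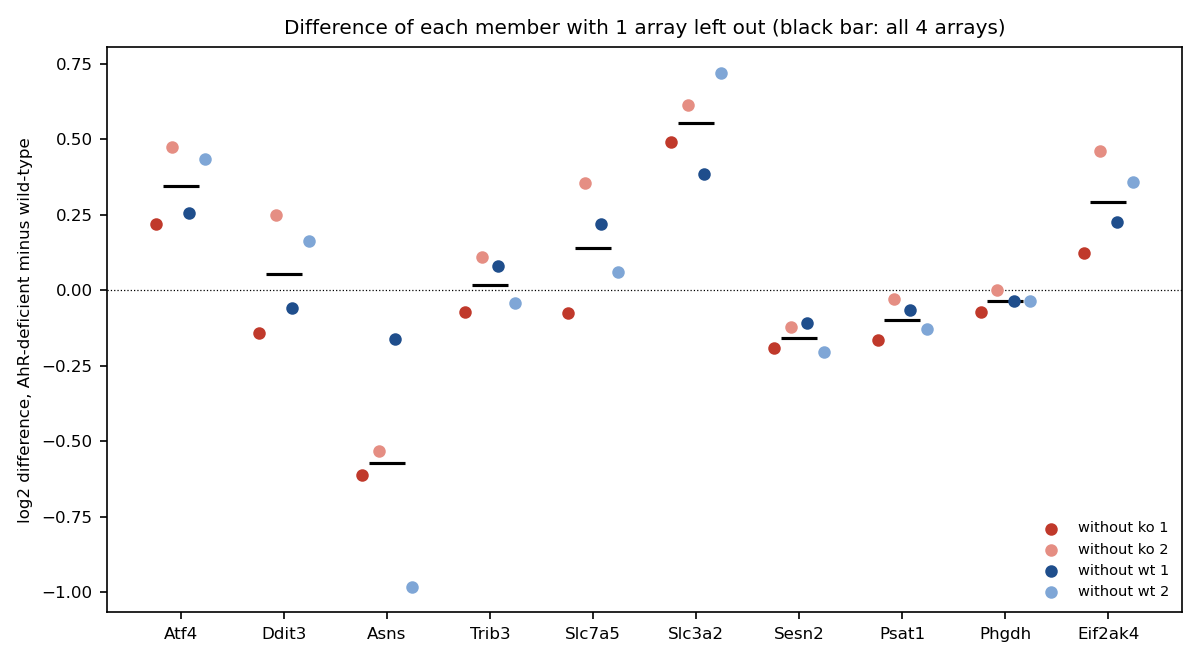
Log2 difference, AhR-deficient minus wild-type (vertical axis), of the 10 member genes with each array left out in turn (coloured points) and with all 4 arrays (black bars). Asns ranges from -0.98 to -0.16 and Slc3a2 from 0.38 to 0.72, while Ddit3, Trib3, Slc7a5 and Phgdh have points on both sides of zero.

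Markers of Langerhans cells and of other skin cells were read on the same arrays, and their counts of separated genes stand beside 18.8% higher and 16.6% lower over all genes. Of 8 Langerhans cell markers, 4 were higher in AhR-deficient cells and 1 lower without overlap. Langerin (Cd207) and Epcam, which define Langerhans cells, were bright on all 4 arrays, with Cd207 from 11.00 to 12.06 and Epcam from 10.71 to 11.38. So were the class II genes by which the cells were sorted. Among them, H2-Aa read 12.47 and 12.32 on the AhR-deficient arrays, against 11.25 and 10.92 on the wild-type arrays (difference 1.31, SE 0.14, limma adjusted p = 0.306). Csf1r, the receptor on which Langerhans cells depend, lay the other way, with 10.54 and 10.14 against 11.07 and 11.70 (difference -1.05, SE 0.26, limma adjusted p = 0.705). The dendritic cell integrin Itgax was near the middle of the signal range, from 5.53 to 5.78. Of 10 measured keratinocyte markers, 5 were higher in AhR-deficient cells without overlap and 0 lower. The log2 of their mean linear signal was 6.46 and 5.45 on the AhR-deficient arrays, against 5.25 and 5.43 on the wild-type arrays. AhR-deficient replicate 1, the array with the highest value for 6 members, was thus highest in keratinocyte signal. On this scale it was also highest for Langerhans cell markers (11.03 and 10.93 against 10.48 and 10.89) and over all genes (7.52 and 7.46 against 7.44 and 7.48). It was likewise highest for macrophage and mast cell markers, and lowest for T cell, melanocyte and stromal markers. Of 9 monocyte and macrophage markers, 6 were higher and 1 lower, with 7.45 and 6.98 against 6.28 and 6.67 on the same scale. Of 8 T cell markers, 4 were lower and 0 higher, with 5.10 and 5.19 against 5.56 and 5.40. Melanocyte markers (6 measured, 0 higher and 2 lower, 5.91 and 6.00 against 6.10 and 6.08), mast cell markers (6 measured, 3 higher and 1 lower, 5.29 and 5.26 against 5.25 and 5.25) and stromal markers (6 measured, 2 higher and 3 lower, 5.71 and 5.81 against 5.87 and 5.81) were also read. No marker of these lists passed in limma. The part of these cells in the members' values was not tested, and in bulk samples a change in the share of a cell type and a change in RNA per cell cannot be told apart.

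The wider pathway was read from 7 lists of genes that act beside the members. In these lists 0 of 112 measured genes passed in limma, beside 0.0323% of all genes, and 10 (8.93%) had an unadjusted p under 0.05, beside 6.54% of all genes. Of these 10 genes, 1 was higher and 9 were lower in AhR-deficient cells, beside 434 higher (3.50%) and 377 lower (3.04%) among the 12393 genes of the array. In the lists that follow, the counts of genes that separated are to be read against the 18.8% higher and 16.6% lower (35.4% in all) over all genes.

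The largest difference in the pathway was that of Ddit4, which encodes the stress-induced mTORC1 inhibitor REDD1 and is also known as a hypoxia target. It read 6.69 and 7.54 on the AhR-deficient arrays, against 9.27 and 9.28 on the wild-type arrays. The wild-type arrays were nearly equal and far above both AhR-deficient arrays, which lay apart from each other. The difference was -2.16 (SE 0.30, limma unadjusted p = 0.00156, adjusted p = 0.436), and it was -1.73 without AhR-deficient replicate 1 and -2.59 without replicate 2. Atf5, a transcription factor related to Atf4, read 6.29 and 6.23 against 7.10 and 6.83 (difference -0.71, SE 0.12, limma adjusted p = 0.533). Of the 19 other ATF4 and stress targets, 1 was higher and 5 lower without overlap, and the median was -0.03; 31.6% of them separated, beside 35.4% of all genes.

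The genes that supply, carry and charge amino acids were read in 3 lists. Of 12 enzymes of serine, one-carbon, proline and transamination pathways, 3 were higher and 4 lower without overlap (58.3%, beside 35.4% of all genes; median -0.02). Gldc, of the glycine cleavage system, was dim but even within each genotype, with 4.52 and 4.52 on the AhR-deficient arrays, against 4.90 and 4.90 on the wild-type arrays (difference -0.38, SE 0.07, limma adjusted p = 0.573). Bcat2, a branched-chain aminotransferase, differed by 0.21 (SE 0.08).

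Of 14 other amino acid transporters, 4 were higher and 3 lower (7 of 14 in all, beside 35.4% of all genes; median 0.05). Slc1a4, a neutral amino acid carrier, differed by -0.34 (SE 0.17). Leaving out replicate 2 gave -0.17 for the AhR-deficient array and -0.19 for the wild-type array. Leaving out replicate 1 gave -0.51 and -0.49 in the same order. Slc6a9, a glycine carrier, differed by 0.22 (SE 0.12), and it came to 0.10 or 0.34 when wild-type replicate 2 or 1, in that order, was left out. Of 18 cytosolic aminoacyl-tRNA synthetases, 1 was higher and 3 lower (22.2%, beside 35.4% of all genes; median -0.03). Iars, which charges isoleucine, read 8.53 and 7.87 against 8.90 and 8.95, a difference of -0.72 (SE 0.24, limma adjusted p = 0.802), which was -0.39 without AhR-deficient replicate 2. Aars, which charges alanine, differed by -0.20 (SE 0.10), by -0.11 without AhR-deficient replicate 2 and by -0.29 without AhR-deficient replicate 1.

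Among 13 genes of the eIF2 machinery, 3 were higher and 3 lower (46.2%, beside 35.4% of all genes; median 0.12). Eif2b2, a subunit of the exchange factor of eIF2, read 8.31 and 8.22 against 8.85 and 8.60 (difference -0.46, SE 0.12, limma adjusted p = 0.706), and Eif2s2, the beta subunit of eIF2, differed by -0.28 (SE 0.08). Of 17 sestrin and mTORC1 genes, 1 was higher and 3 lower (23.5%, beside 35.4% of all genes; median -0.10). Sesn3, a relative of Sesn2, read 6.20 and 6.34 against 6.86 and 6.64 (difference -0.48, SE 0.11, limma adjusted p = 0.674), and the kinase gene Mtor differed by -0.38 (SE 0.11).

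Genes of the endoplasmic reticulum stress response outside the ATF4 arm had 5 of 19 higher and 1 lower (31.6%, beside 35.4% of all genes; median 0.13). Canx, the lectin chaperone calnexin, read 10.13 and 9.85 against 9.24 and 9.67 (difference 0.53, SE 0.19, limma adjusted p = 0.825), a difference that was 0.32 without wild-type replicate 1. Hyou1, a chaperone of the same compartment, differed by 0.20 (SE 0.11), and it came to 0.09 or 0.31 when AhR-deficient replicate 2 or 1, in that order, was left out.

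**Figure D4:**
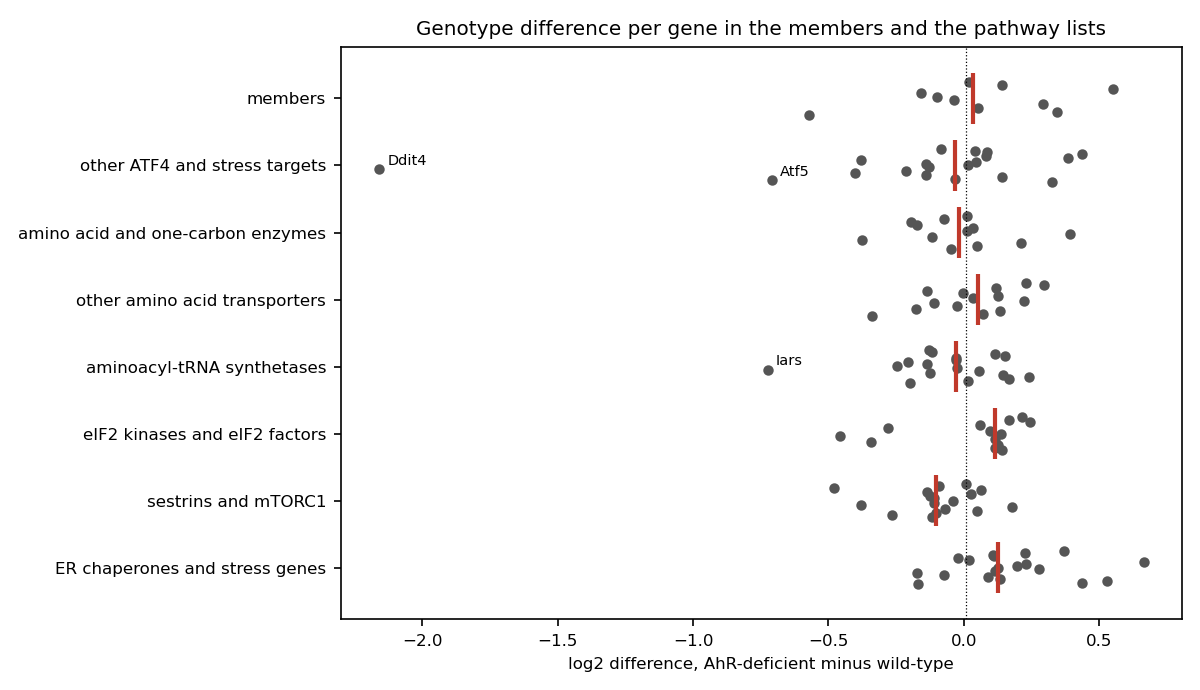
Log2 difference, AhR-deficient minus wild-type (horizontal axis), of each gene in the member list and the 7 pathway lists (rows), with red bars at list medians and a dotted line at the median of all genes; genes beyond 0.7 either way are named. The list medians lie between -0.10 and 0.13, and Ddit4 at -2.16 lies far from the others.

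The pattern of the members as a group, taken as the mean of their values centred on each gene's own mean, was 0.13, -0.08, -0.01 and -0.05 on AhR-deficient replicates 1 and 2 and wild-type replicates 1 and 2. The genes whose centred values were nearest to it over the 4 arrays, by Euclidean distance on the log2 scale, were Gnmt (0.0077), Ube2z (0.0087), Ltb4r1 (0.0092), Vps28 (0.010) and Nab1 (0.011). With 4 arrays and a nearly flat pattern, this names neighbours and nothing more.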

How the data were processed

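Affymetrix MOE430A arrays gave a log2 value for each probe set, as deposited. Per the submitters' processing notes, affy and RMA (background correction, quantile normalisation and probe summary) were used; versions are not given in the sources used here. Medians of the arrays ranged from 5.60 to 5.63, and no further scaling was applied. Per the labels' protocols, RNA was amplified before labelling. Of 22690 probe sets, 64 controls were left out. Gene names came from the platform annotation and were checked by Entrez identifier against RefSeq (GRCm38.p6; 0 symbols changed).

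Genotypes were compared over all probe sets by two-sided moderated tests in limma 3.58.1 (R 4.3.3; residual degrees of freedom 2, prior 2.27), called at an adjusted p of 0.05. The steps were tested on simulated data whose noise was drawn separately for each array, so variation shared between arrays was not covered. The number of arrays limits the precision. The members, lists and tests were chosen with earlier results of these data known. Named were all members and, from each pathway list, up to 6 genes past the threshold or else the 2 with the smallest p; Eif2ak1, Eif2ak2, Eif2ak3 and the marker genes given were named in addition, H2-Aa and Csf1r after their values were seen. Alternatives covered a replicate block, variance trend, dim probe sets, scaling, an added 16 on the linear scale and array weights. They also covered leaving out probe sets ending in _s_at, _x_at or _a_at, the probe sets of a gene and leaving out each array.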

Additional observations from a re-analysis of the deposited data

How the results depend on the processing

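No member probe set was called under any alternative. Over the whole array the 4 calls became 0 with the replicate block, 0 with 16 added, 2 without dim probe sets, 2 without probe sets ending in _s_at, _x_at or _a_at, 8 with a variance trend and 0 (lowest and highest) with any 1 array left out. The deviations of same-numbered arrays from their genotype means correlated at -0.31 across probe sets, so same-numbered arrays tended to deviate in opposite directions. Arrays with different numbers thus shared some variation across the genotypes, which the main fit did not model. How the samples were paired in preparation is not shown by this. A crossed replicate block, which put replicate 1 of each genotype with replicate 2 of the other, was chosen after seeing the data. It also gave 0 calls over the whole array and 0 among the members. Each block is balanced over the genotypes, so it could change only the error of a member's difference, not the difference itself. The count of members higher without overlap was 1 of 5 without probe sets ending in _s_at, _x_at or _a_at. That setting removed Slc3a2 and Eif2ak4 altogether, as each has no other probe set. The count ranged from 3 to 6 with 1 array left out. The count lower was 4 with array medians subtracted, 4 with quantile normalisation again, 4 with the mean over a gene's probe sets, and 2 to 6 with 1 array left out. The share over all genes is not given for these settings, so a shift of these counts cannot be told from a shift of all genes. The median member difference ranged from -0.074 to 0.18 with 1 array left out. With the mean over a gene's probe sets, Trib3 turned to -0.12 and Phgdh to 0.0025. With 1 array left out, where the lone array is assumed to vary like the others, differences that turned sign ranged from -0.14 to 0.25 for Ddit3, -0.075 to 0.35 for Slc7a5, -0.074 to 0.11 for Trib3 (1426065_a_at), -0.078 to 0.15 and -0.075 to 0.016 for Atf4 (1438992_x_at, 1439258_at), and -0.21 to 0.075 for Sesn2 (1425139_at). For Phgdh they ranged from -0.073 to 0.00040 (1426658_x_at), -0.050 to 0.087 (1437621_x_at), -0.032 to 0.13 (1454714_x_at) and -0.058 to 0.012 (1456584_x_at). The cause of these turns was not tested. Slc3a2, Asns, Eif2ak4, Psat1 and the brightest Atf4 and Sesn2 probe sets kept their sign under the alternatives run. So did the 14 genes named from the pathway lists. This was largely fixed in advance. Where the genotypes do not overlap, as for all of these genes except Psat1 and 1 Asns probe set, leaving out 1 array cannot turn the sign. The replicate block, variance trend and array weights left every difference as it was. The kept signs therefore add no support. Low signal limits Psat1, Eif2ak4 and Trib3.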
